A study of Danio rerio with 4 samples.

Results

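A set of 8 genes whose RNA is made in the growing oocyte was followed from the egg into the zebrafish embryo: zar1, cpeb1b, btg4, mos, gdf9, bmp15, figla and zp3b. They were chosen by gene name, and each of the 8 names matched 1 row of the deposited table, of 25769 genes in all. A fish egg carries a store of RNA that the mother made, and the embryo lives on this store until its own genome is switched on and much of the store is cleared. Oocyte genes are a special case within it, because several of their proteins act in the ovary, in meiosis or in the egg coat, before the embryo exists. The control of such stored RNA runs largely through the poly(A) tail, which cytoplasmic polyadenylation lengthens and deadenylation shortens.

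All embryos had the AB/TL background and received 4-thiouridine (4sU) by injection at the 1-cell stage, a base that enters only RNA made afterwards. Pools of 25 embryos were collected at 1 hour post fertilization (hpf) and at 4.8 hpf, during epiboly. The later time and a 4sU dose of 50 mM are used here, and the sample labels have 6 hpf and 20 mM in their place. Either stage was read once as polyA+ RNA on a NextSeq and once as ribo-depleted RNA on a NovaSeq, so library type and platform cannot be told apart, and a given type of library has n = 1 at a stage. The labels give 2 technical replicates per stage, and nothing ties the deposited values to those numbers. Whole embryos were pooled, so fewer cells holding an RNA and less RNA per cell cannot be told apart, and no library of uninjected embryos was used here.

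The libraries held 9058807 to 22521675 reads. The later stage was checked against 8 genes switched on in the blastula and gastrula, and all 8 rose, for example the mesoderm factor tbxta from 0 and 0.133 counts per 1000000 library reads (CPM) to 268 and 189 (polyA+ and ribo-depleted). Of 14 marker names of ovarian follicle cells, the other cell type of the ovarian follicle, 7 matched a row, and 2 of these were at 0 in each library, though not always the same 2. The other 7 names were not used here. The granulosa markers amh and gsdf and the receptor gene lhcgr stayed between 0 and 0.222 CPM. The steroid enzyme genes cyp11a1 (259, 243, 75.2 and 115 CPM in the polyA+ and ribo-depleted libraries at 1 hpf, then at 4.8 hpf) and cyp17a1 carried nearly all of the list, whose summed level went from 432 and 360 at 1 hpf to 152 and 205 at 4.8 hpf. By the labeling estimate, RNA made after the injection gave 0 and 0 of the cyp11a1 reads at 1 hpf and 19.2% and 12.5% at 4.8 hpf. For cyp17a1 the values were 0 and 9.39%, then 0 and 10.5%. The paper describes embryos as transcriptionally silent at the onset of development, so a value above 0 at 1 hpf is taken as background. Part of the later cyp11a1 RNA was new by its own values, so this gene does not mark follicle cells alone here. Of the 3 markers tested 1 fell (hsd3b1, adjusted p = 0.0303), and their part in the results on the oocyte genes was not tested.

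All 8 oocyte genes were detected in all 4 libraries and passed the filter on low counts. Together they held 0.102% (polyA+) and 0.139% (ribo-depleted) of reads at 1 hpf, and 0.0217% and 0.0304% at 4.8 hpf. Levels of different genes are compared here only per length, as transcripts per 1000000 (TPM). At 1 hpf btg4 was the most abundant of the 8, at 528 TPM (polyA+) and 912 TPM (ribo-depleted), the latter with rank 135 among all genes. The genes cpeb1b (362 and 132 TPM), zp3b (133 and 291) and bmp15 (135 and 115) followed, and neighbours in that order did not differ beyond the range of the 2 libraries. Next came mos (47.3 and 113 TPM), then zar1 (45.8 and 41.5) and gdf9 (42.3 and 29.9), which overlapped, and figla (16.6 and 7.32) was the lowest. At 4.8 hpf btg4 (67.0 and 68.0 TPM), zp3b (65.3 and 50.6) and cpeb1b (59.8 and 45.9) lay close together, with zp3b and cpeb1b overlapping. They were followed by zar1 (44.2 and 25.4 TPM), bmp15 (18.9 and 16.6), gdf9 (15.6 and 9.36), mos (3.83 and 7.79) and figla (2.74 and 2.82), and the ranges of the libraries did not overlap between neighbours. Within the polyA+ library, counting intervals overlapped for btg4 and zp3b, for bmp15 and gdf9, and for mos and figla. Within the ribo-depleted library those of gdf9 and mos overlapped. By mean TPM zar1 had rank 6 of the 8 at 1 hpf and rank 4 at 4.8 hpf.

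**Figure D1:**
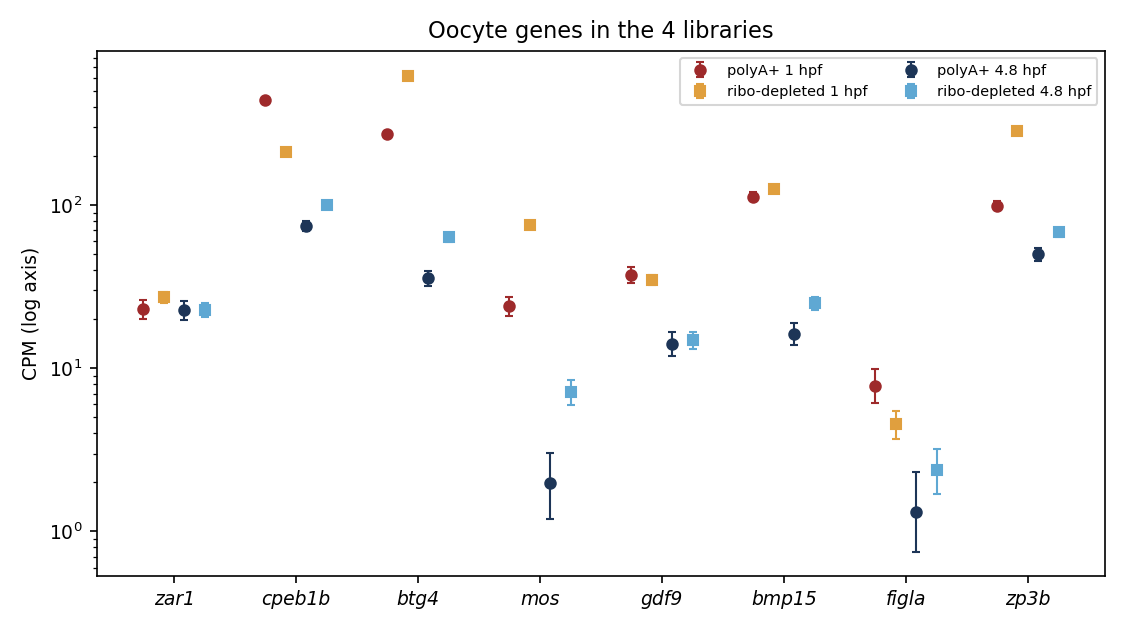
CPM (log axis) of the 8 oocyte genes in the polyA+ (circles) and ribo-depleted (squares) libraries at 1 hpf and 4.8 hpf, with 95% exact Poisson intervals that cover counting error only. The 4 values of zar1 lie between 22.6 and 27.3, and the 4.8 hpf values of the other genes lie below both of their 1 hpf values.

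Clearance by 4.8 hpf was then examined in total reads. Levels are shares of library reads and were not scaled to the RNA of an embryo. The percent left, given below per gene, is thus a change in share and not an amount of RNA. Of the 8 genes 7 fell, where 14.4% of the 16315 genes tested fell and 18.3% rose, 32.6% in all (edgeR quasi-likelihood test with library type in the model, Benjamini-Hochberg adjusted p below 0.05). The exception was zar1. None rose, also at an unadjusted p below 0.05, with edgeR or with DESeq2. The median log2 change of the 8 genes was -1.57, and that of all genes tested was 0.10, with quartiles of -0.73 and 0.90. With library totals in place of TMM scaling these medians were -1.74 and -0.056. In CPM, both 1 hpf libraries lay above both 4.8 hpf libraries for all 8 genes, zar1 by a margin within counting error, and for 30.4% of the genes tested. With 1 residual degree of freedom, a gene's own spread in this fit is that between the stage changes of the 2 library types. The test moderates this spread toward a trend shared by all genes, and the SEs of the 8 did not follow their own spread. In CPM btg4 had log2 changes of -2.95 (polyA+) and -3.29 (ribo-depleted) with an SE of 0.586. For cpeb1b these were -2.56 and -1.07, with an SE of 0.574. The SE and adjusted p of a gene thus do not measure how far its library types differ. Batches of embryos do not enter this spread. Without library type in the model bmp15 alone of the 8 passed (adjusted p = 0.0315). In that fit 370 of the 16315 genes tested fell, against 2343 in the main fit. With 3 libraries the model had to drop library type as well, so those fits change 2 choices at once. They also keep 1 library at a stage and call far fewer genes, these 8 included, so effect sizes are given. The median log2 change of the 8 was -1.50 without the polyA+ 1 hpf library and -2.21 without the ribo-depleted one. Without the polyA+ 4.8 hpf library it was -1.46, and without the ribo-depleted 4.8 hpf library -2.05.

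The products of zar1 and cpeb1b bind RNA, and these genes took different courses. Zar1 is an RNA-binding protein of the oocyte, named in the mouse for the arrest of embryos from mothers that lack it. Its RNA stood at 23.0 and 27.3 CPM at 1 hpf (polyA+, then ribo-depleted) and at 22.6 and 22.8 at 4.8 hpf. The later level was 98.5% of the early one in the polyA+ libraries (95% counting interval 81.3 to 119) and 83.7% in the ribo-depleted libraries (73.6 to 94.98). The log2 change of zar1 was 0.013 (SE 0.441, adjusted p = 0.985), and its sign turned with library totals (-0.14). As a share of unlabeled reads only, the later level of zar1 was 119% (polyA+) and 99.7% (ribo-depleted) of the early one, where unlabeled RNA made up 83.6% and 81.3% of all reads at 4.8 hpf.

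Cpeb1, known mainly from Xenopus oocytes, binds the cytoplasmic polyadenylation element of stored mRNAs and controls their tail length and translation. Its zebrafish gene cpeb1b gave 443 and 211 CPM at 1 hpf and 74.8 and 101 at 4.8 hpf. Both later values were below both early ones, and the early values were the farther apart. In the polyA+ libraries 16.9% of the early level was left (15.6 to 18.3), and in the ribo-depleted libraries 47.7% (45.1 to 50.4). The log2 change was -1.66 (SE 0.574, adjusted p = 0.0148), and in the fits with 3 libraries and no library type it ran from -2.35 (without ribo-depleted 1 hpf) to -0.99 (without polyA+ 1 hpf).

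Btg4 is, in mouse oocytes, the adaptor that brings the CCR4-NOT deadenylase to maternal mRNAs. Its RNA stood at 274 and 622 CPM at 1 hpf and at 35.5 and 63.4 at 4.8 hpf, far below both early values. The share left was 13.0% in polyA+ (11.6 to 14.5) and 10.2% in ribo-depleted (9.60 to 10.8), intervals that did not overlap. The log2 change was -2.97 (SE 0.586, adjusted p = 4.14e-06).

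The kinase Mos starts the MAPK cascade that holds vertebrate eggs in metaphase of the second meiotic division. Its RNA went from 24.0 and 75.7 CPM at 1 hpf to 1.99 and 7.11 at 4.8 hpf, the last 2 values resting on 20.3 and 127 estimated reads. In polyA+ 8.28% was left (4.87 to 12.9) and in ribo-depleted 9.40% (7.81 to 11.3). These were the lowest values of the 8 genes, with intervals that overlapped that of btg4 in both library types and those of bmp15 and figla in polyA+. The log2 change of -3.33 (SE 0.494, adjusted p = 2.99e-10) was also the lowest of the 8, and 0.398% of all genes tested had a lower one. In the fits with 3 libraries and no library type it was -4.42 (without ribo-depleted 4.8 hpf), -3.77 (without polyA+ 1 hpf), -2.58 (without polyA+ 4.8 hpf) and -2.40 (without ribo-depleted 1 hpf). The estimated counts of mos were not whole in any library, so part of its level may depend on how reads were divided between places in the genome.

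Gdf9 and Bmp15 are ligands of the TGF-beta family that the oocyte sends to its follicle cells. The gene gdf9 gave 37.3 and 34.6 CPM at 1 hpf and 14.1 and 14.8 at 4.8 hpf, with the library types close at both stages. It kept 37.7% in polyA+ (30.9 to 46.1) and 42.8% in ribo-depleted (37.1 to 49.3), and its log2 change of -1.16 (SE 0.448, adjusted p = 0.0329) was the smallest fall called. This call was lost with DESeq2 (adjusted p = 0.105) and with scaling to unlabeled reads (adjusted p = 0.058). The gene bmp15 went from 113 and 126 CPM to 16.3 and 25.1, so that 14.4% (12.1 to 16.96) and 19.8% (17.9 to 21.9) were left. Its log2 change was -2.41 (SE 0.489, adjusted p = 8.05e-06). The intervals of the share left for the ligand genes did not overlap in either library type, and bmp15 fell further than gdf9 in both.

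Figla is a basic helix-loop-helix factor that in the mouse oocyte switches on the egg coat genes. The gene figla was the scarcest of the 8, with 7.84 and 4.53 CPM at 1 hpf and 1.32 and 2.39 at 4.8 hpf, with 71 estimated reads in polyA+ at 1 hpf and 13.5 and 42.5 at 4.8 hpf. In polyA+ 16.9% was left (9.10 to 31.3) and in ribo-depleted 52.7% (35.4 to 75.3). The log2 change was -1.49 (SE 0.541, adjusted p = 0.022), and the call was lost with DESeq2 (adjusted p = 0.286). In the fits with 3 libraries and no library type it ran from -2.06 (without ribo-depleted 1 hpf) to -0.99 (without polyA+ 1 hpf).

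The egg coat gene zp3b encodes a zona pellucida protein of the chorion. Its RNA stood at 99.4 and 286 CPM at 1 hpf and at 49.9 and 68.0 at 4.8 hpf, and the 2 early values were again farther apart than the late ones. In polyA+ 50.3% was left (45.003 to 56.1) and in ribo-depleted 23.8% (22.3 to 25.3), the opposite order to cpeb1b and figla. The log2 change was -1.38 (SE 0.505, adjusted p = 0.0225), and in the fits with 3 libraries and no library type it ran from -2.003 (without polyA+ 1 hpf) to -0.77 (without ribo-depleted 1 hpf). Other zona pellucida genes lie in related copies, and how reads of close copies were divided is uncertain.

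**Figure D2:**
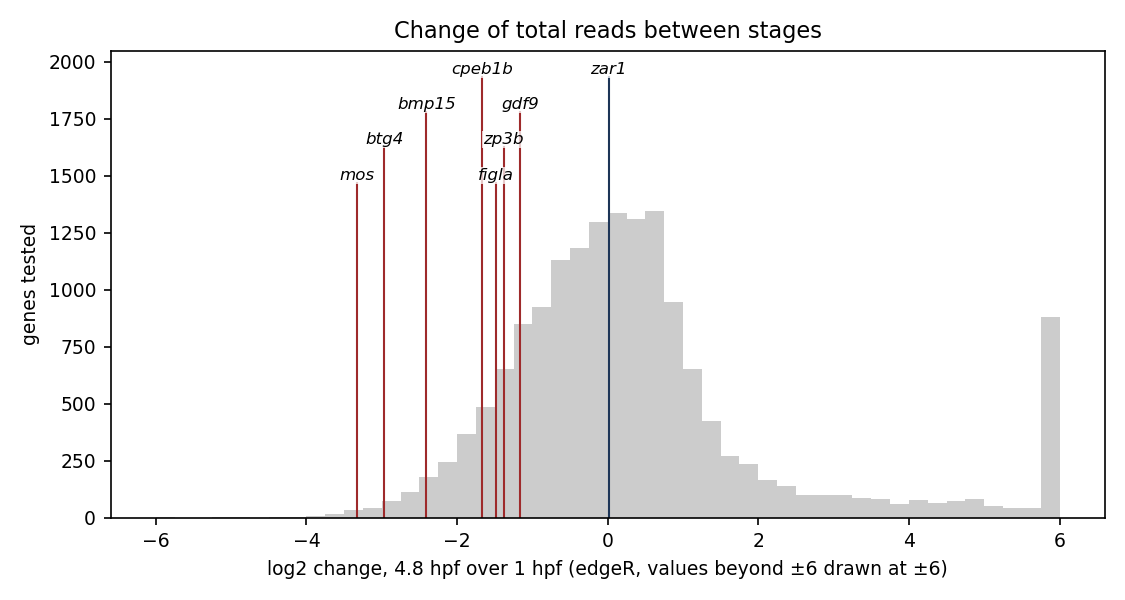
Histogram of the log2 change from 1 hpf to 4.8 hpf (edgeR, all 4 libraries) of the 16315 genes tested, with 1 line for each oocyte gene, red where the adjusted p is below 0.05 and blue where it is not. The 7 red lines run from -3.33 (mos) to -1.16 (gdf9), and zar1 sits at 0.013, near the middle of all genes.

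Maternal RNA was also measured on its own, as unlabeled reads per 10000 library reads on a log2 scale with a floor of -4. Unlabeled reads can include new RNA. Of the 8 genes that checked the later stage, gsc (66.1%) to sox17 (98.2%) of polyA+ reads were labeled at 4.8 hpf. In ribo-depleted the range was gsc (73.9%) to noto (86.1%). How far this moves the ratios below was not tested. The median log2 ratio of 1 hpf over 4.8 hpf for the 8 genes was 1.69 for polyA+ and 1.69 for ribo-depleted RNA. For all genes with at least 100 reads at 1 hpf the medians were 0.46 and 0.50. A ratio above 1 was found for 6 of the 8 genes in each library type, where 32.9% and 31.7% of all such genes had one. The highest were btg4 in polyA+ (2.94) and mos in ribo-depleted (3.41), and the lowest were zar1 in polyA+ (0.0016) and figla in ribo-depleted (0). Both values of figla in ribo-depleted were at the floor, and its ratio without the floor was 1.16 there and 2.57 in polyA+. The polyA+ ratio of mos, 1.94, was cut by the floor in the same way, from 3.59. Without the floor the polyA+ median of the 8 genes lies between the ratios of cpeb1b (2.56) and figla (2.57). The ribo-depleted median stayed at 1.69 without it. The equal medians of the 2 library types thus rest on the floor.

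The library types count different RNA. A polyA+ library holds RNA with a tail long enough to be captured, and a ribo-depleted library holds RNA whatever its tail. One oocyte gene passed the test for library type in the 4 libraries, mos, which was higher in ribo-depleted libraries by 2.91-fold (log2 polyA+ over ribo-depleted -1.54, SE 0.47, edgeR adjusted p = 0.0132). Of all genes tested, 6.44% were called higher in ribo-depleted and 5.19% higher in polyA+ libraries, 11.6% in all. None of the 8 was called higher in polyA+, also at an unadjusted p below 0.05, with edgeR or with DESeq2. The call of mos was lost without stage in the model, where none of the 16315 genes tested was called. Fits with any 1 library left out lacked the stage term too and so mixed stage with library type. In them the log2 ratio of mos ran from -4.11 to 0.90. The median log2 ratio over the 8 was -0.081, close to -0.074 for all genes tested.

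At 1 hpf the log2 ratio of polyA+ over ribo-depleted CPM ran from -1.65 (mos) to 1.07 (cpeb1b). Besides mos, zp3b (-1.53, interval -1.63 to -1.43) and btg4 (-1.18, -1.24 to -1.12) were low, so 3 of the 8 lay below the lower quartile of -0.83 of the 8344 genes that reached 100 reads in each library of that stage. In linear terms the ribo-depleted library held 3.15 times the mos, 2.88 times the zp3b and 2.27 times the btg4 of the polyA+ library. The genes zar1 (-0.25), bmp15 (-0.16) and gdf9 (0.11) lay nearer to the median of -0.12. The highest of the 8 were cpeb1b (interval 1.01 to 1.13) and figla (0.79, 0.33 to 1.24), and gdf9 (interval -0.081 to 0.29) also lay above the median. With TMM scaling all ratios at this stage moved up by the same amount, the median of all genes to 0.24, and zar1 (0.11) and bmp15 (0.20) changed sign.

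At 4.8 hpf all 8 ratios were below 0, and 6 of the 8 lay below the lower quartile of -0.35 of 8932 genes with at least 100 reads in each library of the stage, whose median was 0.016. Mos and figla are among these 6 but had under 100 reads in polyA+, and of the other 6 members 4 lay below that quartile. Mos was again the lowest of the 8 (-1.84, interval -2.62 to -1.18). Of those 8932 genes 0.515% were lower, but the filter on reads keeps mos out of that set, so this share does not rank mos. After mos came figla (-0.85, -1.77 to 0.12), btg4 (-0.84, -1.01 to -0.66), bmp15 (-0.63, -0.89 to -0.37), zp3b (-0.45, -0.60 to -0.30) and cpeb1b (-0.43, -0.55 to -0.31). The intervals of gdf9 (-0.077) and zar1 (-0.014) included 0. The median of the 8 genes was -0.54, against -0.21 at 1 hpf.

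Set side by side, the ratio of cpeb1b went from 1.07 to -0.43 and that of figla from 0.79 to -0.85. Among 7376 genes with at least 100 reads in all 4 libraries, whose median shift was 0.12, only 1.07% shifted further down than cpeb1b. For figla this share was 0.556%, but figla had fewer than 100 reads in every library but the ribo-depleted one at 1 hpf. The filter keeps figla out of that set, so its share does not rank it. The gene zp3b shifted up by 1.08. The shift of mos was -0.18 and that of btg4 0.35, so both kept a low polyA+ share at both stages. With 1 library of each type and stage these shifts have no replicate and were not tested.

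**Figure D3:**
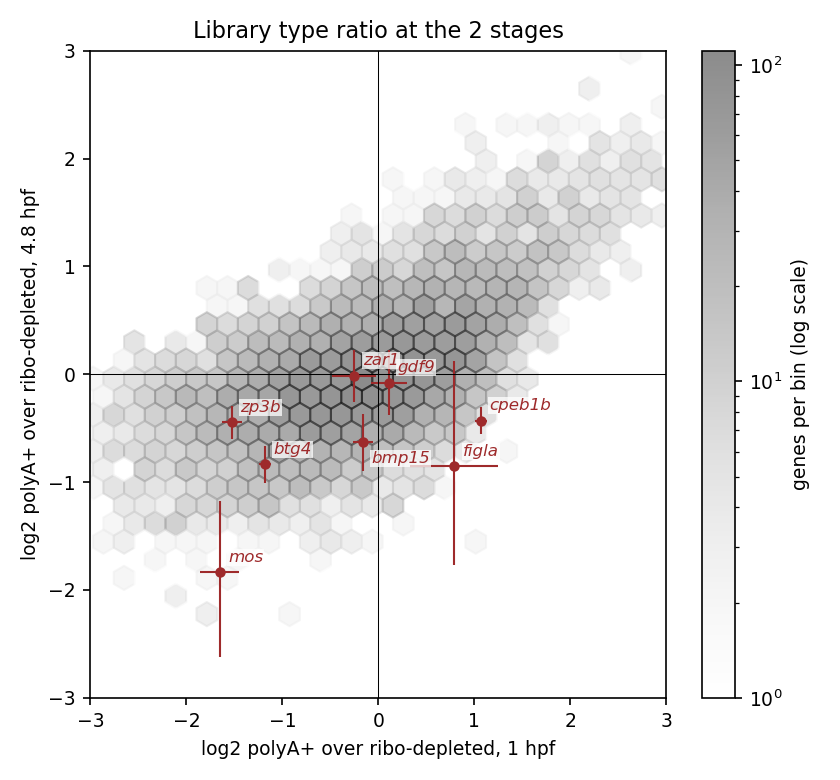
Log2 ratio of polyA+ over ribo-depleted CPM at 1 hpf (horizontal) and 4.8 hpf (vertical) for 7376 genes (grey hexagons, darker for more genes, axes cut at -3 and 3) and for the 8 oocyte genes (red, with 95% counting intervals). All 8 red points lie below 0 on the vertical axis, cpeb1b and figla lie far to the right and below, and mos lies low on both axes.

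Labeling shows whether any of the remaining RNA was new. The new-to-total RNA ratio (NTR) is the estimated percent of a gene's reads from RNA made after the injection. Pooled over the 8 genes, 0.313% (polyA+) and 0.655% (ribo-depleted) of reads at 4.8 hpf were labeled, where 16.4% and 18.7% of all reads were. At 1 hpf the pooled values were 0.0938% and 0.0328%, against 0.188% and 1.40% of all reads. An NTR below 1% at 4.8 hpf was found for 7 of the 8 genes in polyA+ and 5 in ribo-depleted, and for 19.0% of all genes with at least 100 reads in each. Mos and figla are among the 7 but had only 20.3 and 13.5 reads in polyA+, so their NTR of 0 there says little.

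The NTR of cpeb1b and of mos was 0 in all 4 libraries, and that of btg4 was 0.13% in polyA+ at 1 hpf and 0 elsewhere. For bmp15 it was 0.12%, 0.14%, 0 and 0.45% (polyA+ and ribo-depleted at 1 hpf, then at 4.8 hpf), and for zp3b 0.15%, 0.02%, 0.86% and 0.26%. The RNA of zar1, the gene without a called change, had an NTR of 1.38%, 0.09%, 0 and 1.86%, so nearly all of its reads at 4.8 hpf were unlabeled. Higher values were seen for gdf9, at 0 and 0 and then 1.76% and 5.62%, and for figla, at 0, 4.33%, 0 and 18.7%. The last value rests on 42.5 reads with 14 conversions. In the paper's account the embryo's genome is still silent at 1 hpf. Values above 0 at that stage, such as the 4.33% of figla, are thus taken as background of the estimate and not as new RNA.

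The raw share of covered T bases read as C did not rise with stage in the same way. In ribo-depleted libraries bmp15 had 0.430% at 1 hpf (95% Wilson interval 0.392 to 0.471) and 0.3997% at 4.8 hpf (0.312 to 0.512). Likewise gdf9 had 0.333% and 0.373%, figla 0.621% (0.421 to 0.914) and 0.988% (0.589 to 1.65), and zp3b 0.302% and 0.252%. The lowest ribo-depleted shares were those of cpeb1b, 0.0589% and 0.0649%, and of btg4, 0.0852% and 0.0539%. The intervals of the 2 stages overlapped for each of the 8 genes, in both library types. Over all genes with at least 100 reads the median share rose from 0.138% to 0.760% in ribo-depleted and from 0.164% to 0.894% in polyA+ libraries. Bases of 1 read are not independent, so these intervals cover counting error only.

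**Figure D4:**
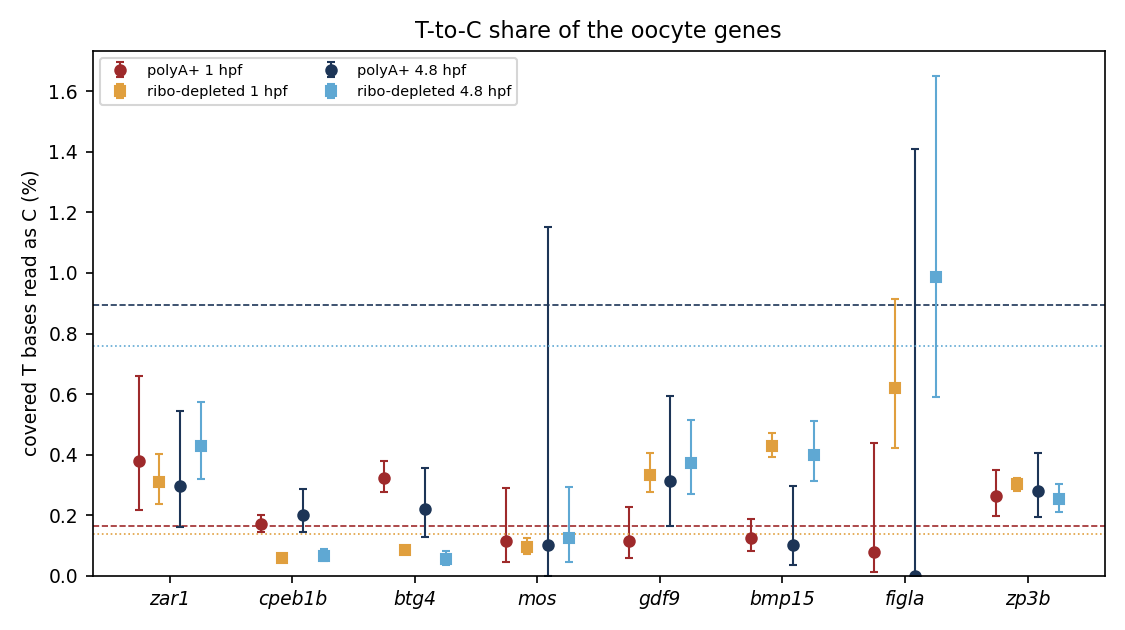
Percent of covered T bases read as C for the 8 oocyte genes in each library, with 95% Wilson intervals, and the median of all genes with at least 100 reads (dashed lines for polyA+, dotted for ribo-depleted, in the colour of the library). Apart from figla in the ribo-depleted 4.8 hpf library (0.988%), all points lie below both 4.8 hpf medians of 0.894% and 0.760%.

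The oocyte genes were then set beside related genes in 6 lists, and their counts stand beside the 14.4% of all genes tested that fell and the 18.3% that rose. The egg coat list held 19 other zona pellucida genes, and 2 of them fell, with a median log2 change of -0.40. The falls were zp3d.2 (-1.50, adjusted p = 0.0218) and zp3f.1 (-1.48, adjusted p = 0.0171), while zp3a.2 had -0.015 and zp2l2 0.025. The change of zp3b itself was -1.38. By library type 13 of the 19 were not called. The 4 genes zp2.1, zp2.3, zp2.5 and zp2.6 were higher in polyA+ (log2 1.71, 1.33, 1.29 and 1.85), where 5.19% of all genes tested were. The 2 genes zp3e and zp3f.1 were higher in ribo-depleted libraries (-1.73 and -1.70), where 6.44% of all genes tested were. These zp names were picked for passing that test. The 4 zp2 genes lay close together, at 53.6 to 64.8 CPM in polyA+ at 1 hpf. How reads of close copies were divided is uncertain, so they may not count as separate genes. The type ratio of zp3b itself was -0.81 (edgeR adjusted p = 0.339).

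Of 14 genes for oocyte transcription and chromatin 10 were tested, and 2 fell and 2 rose (median -0.13). The TATA-box factor gene tbpl2 fell (log2 change -3.07, adjusted p = 4.15e-09), as did the homeobox gene lhx8a (-1.595, adjusted p = 0.00231), and figla had -1.49. The cold shock protein gene ybx1 rose by 1.92 (adjusted p = 0.0303), and pou5f3, an activator of the embryonic genome, had 1.32 (adjusted p = 0.156). The other rise was the heat shock factor gene hsf1 (1.11, adjusted p = 0.0489).

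Of 21 genes of the Mos and MAPK pathway and meiotic arrest 20 were tested, and 4 fell and 1 rose (median -0.24). The gene fbxo43, whose product inhibits the anaphase-promoting complex in arrested eggs, went from 976 and 469 CPM to 31.8 and 98.7 (log2 change -3.44, adjusted p = 1.26e-05), close to mos. The polo kinase gene plk1 fell (-1.78, adjusted p = 0.0284), and the inhibitory kinase genes wee2 (-1.39) and pkmyt1 (-1.64) fell as well. Its relative wee1 rose by 3.17 (adjusted p = 2.76e-08), and cdc25b had 0.64 (adjusted p = 0.437). The MAPK gene mapk3 and the MEK gene map2k1, downstream of Mos, had 0.12 and 0.044, and neither passed the test.

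Of 31 genes of the CPEB complex and cytoplasmic polyadenylation 30 were tested, and 5 fell and 2 rose (median 0.18). The lowest was zar1l, a relative of zar1, which went from 211 and 312 CPM at 1 hpf to 12.3 and 23.7 (log2 change -3.75, adjusted p = 4.16e-10), while zar1 had 0.013. The germline RNA-binding gene dazl fell (-3.14, adjusted p = 3.19e-06), and tacc3, patl2 and tent2, which encodes a cytoplasmic poly(A) polymerase, were the other falls. The rises, cpeb2 (2.82) and msi1 (3.27), started from no more than 0.221 CPM at 1 hpf.

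Of 23 genes of the BTG and Tob family and the CCR4-NOT complex 22 were tested, and 3 fell and 1 rose (median 0.39). The deadenylase gene cnot7 fell (-2.25, adjusted p = 1.42e-05), as did pan3, of another deadenylase (-1.78, adjusted p = 0.00657), with cnot6b as the third fall. The gene btg1 went from 20.5 and 14.1 to 280 and 111 CPM, a rise of 3.52 (adjusted p = 1.33e-09), the opposite course to btg4. The scaffold gene cnot1 had 1.22 (adjusted p = 0.0657).

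Of 22 genes for receptors, Smads and follistatins of the Gdf9 and Bmp15 pathway 17 were tested, and 2 fell and 1 rose (median 0.049). The falls were in type I receptor genes, bmpr1ba (-1.39, adjusted p = 0.0101) and bmpr1bb (-1.10, adjusted p = 0.0482). The type I receptor gene tgfbr1b went from 0 and 0.266 CPM to 6.95 and 15.7 (adjusted p = 6.49e-17), and acvr1l had 1.15 (adjusted p = 0.141). The type II receptor genes bmpr2a and bmpr2b were under the filter, at 0 to 0.178 CPM at 1 hpf and 0.0979 to 1.18 at 4.8 hpf.

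**Figure D5:**
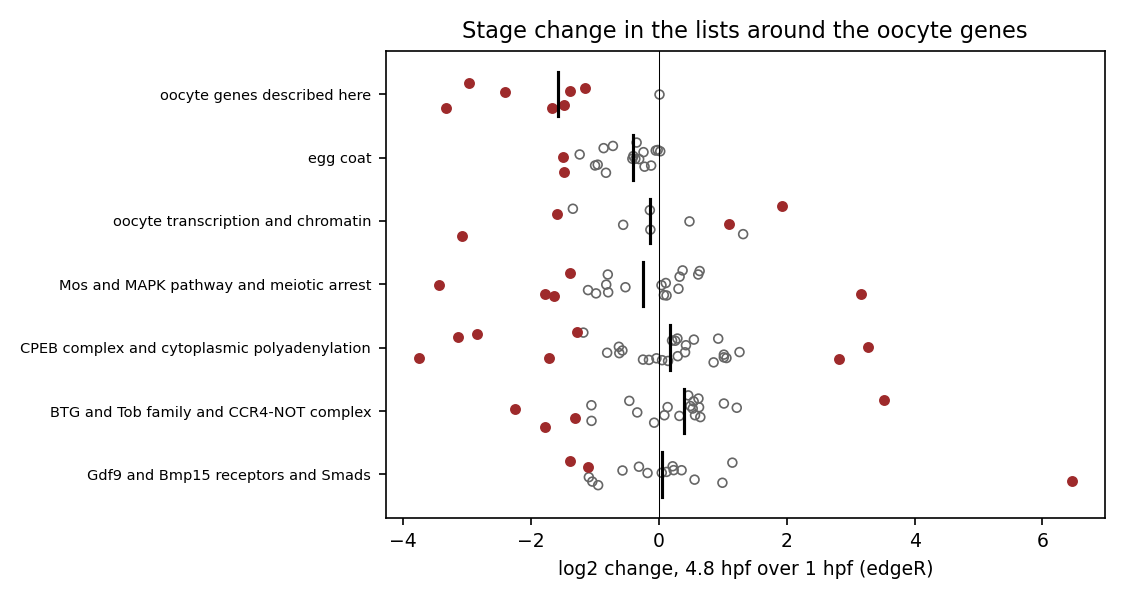
Log2 change from 1 hpf to 4.8 hpf (edgeR) of each gene tested, for the 8 oocyte genes and the 6 lists (filled where the adjusted p is below 0.05, open where it is not, vertical bar at the median, vertical scatter random). The medians of the lists lie between -0.40 and 0.39, and that of the 8 oocyte genes lies at -1.57.

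The genes most like the 8 in course over the 4 libraries were found by the distance of their centred log2(CPM + 0.5) to the median course of the 8, among 12633 genes with at least 100 reads in 1 library. The nearest 5 were snai3 (distance 0.071), si.busm1.57f23.1 (0.081), znhit3 (0.101), tmem79a (0.109) and dcun1d2a (0.114), where the median distance was 1.97. Of the 8 themselves gdf9 (0.602) and figla (0.665) were nearest to that course and mos (2.04) was the farthest. The transcription factor gene snai3 went from 5.41 and 5.59 CPM to 0.979 and 1.46. Its NTR at 4.8 hpf was 0 in polyA+ and 24% in ribo-depleted. The znhit3 RNA had an NTR of 23.9% and 47.0% at 4.8 hpf. These znhit3 values and the 24% of snai3 lay above every NTR of the 8 oocyte genes. The 24% rests on few reads, as snai3 stood at 1.46 CPM in that library, below figla at 2.39. The remaining neighbours had at most 9.77%.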

How the data were processed

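The authors used cutadapt for trimming, STAR for alignment to GRCz11 and GRAND-SLAM for labeling. Tool versions are not given here. The deposited estimated counts are raw, and may be fractions (whole for 71.9%, 76.6%, 65.1% and 71.6% of listed values, within 1e-06, in polyA+ and ribo-depleted at 1 hpf, then at 4.8 hpf). The deposited NTR is a fraction, printed here as percent, and the deposited coverage counts T bases covered, a signal beside the T-to-C conversions. A gene without an estimate in a library was taken as 0 reads.

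Counts were rounded to whole numbers and tested by edgeR 4.0.16 under R 4.3.3 (quasi-likelihood, TMM, filterByExpr, stage and library type, Benjamini-Hochberg over 16315 genes, threshold 0.05). The common dispersion was 0.0977. The scripts were tested on simulated data. DESeq2 1.42.0, other scalings, no filter, unlabeled reads, models without 1 term and leaving out single libraries were alternatives. Intervals are 95% exact Poisson (levels), exact binomial (ratios) and Wilson (conversions), cover counting error only, and rest on 9058807 to 22521675 reads per library. Other steps used scipy 1.17.1, pandas 2.3.3 and numpy 2.4.6 under Python 3.11.15.

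The genes and lists were chosen with earlier results of these data known. Named beside the 8 are the 5 nearest genes and, per list, the 2 lowest and 2 highest stage changes among genes tested. Further list genes were named after their values were seen. List membership was by exact gene name.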

Additional observations from a re-analysis of the deposited data

Results flagged for a closer look

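In log2 polyA+ over ribo-depleted CPM, cpeb1b had 1.07 at 1 hpf and -0.43 at 4.8 hpf, figla 0.79 and -0.85, and gdf9 0.11 and -0.077. For these genes the library types were thus ordered one way at 1 hpf and the other way at 4.8 hpf. The difference between the stages was not tested, because each stage had 1 library of each type. The counting intervals of cpeb1b excluded 0 at both stages, that of figla excluded 0 at 1 hpf, and those of gdf9 included 0 at both. With TMM scaling the 1 hpf ratios were 1.43, 1.16 and 0.47, in the same order. That scaling also gave opposite signs at 1 hpf and 4.8 hpf to zar1 (0.11 and -0.021) and bmp15 (0.20 and -0.63). Which genes change order thus depends on the scaling. The share of all genes that do so was not computed, so the change of order is not read as a trait of these genes.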

How the results depend on the processing

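No paired analysis was possible because the deposited values carry no replicate number. The main model compares the stages within each library type. The 7 falls stayed negative in all 10 alternatives of each gene. The count of 7 was also found with library totals, no filter and unlabeled reads. It was 6 with scaling to unlabeled reads, 5 with DESeq2 and 1 without library type, where 370 of the 16315 genes tested fell. Fits with single libraries left out also dropped library type and called far fewer genes, these 8 included. In them the median log2 change of the 8 ran from -2.21 to -1.46. The log2 change of zar1 turned negative with library totals (-0.14), without a filter (-0.023) and without the ribo-depleted 1 hpf library (-0.025, lowest of -0.025 to 0.016).

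For library type, 1 gene was called with library totals, no filter, unlabeled reads and DESeq2 (mos, adjusted p = 0.0499 there). The count was 0 without stage, also at an unadjusted p below 0.05, and none of the 16315 genes tested was called there. Each fit with 1 library left out also dropped stage and kept 1 library of a type, so only its ratios are given. The log2 type ratio changed sign for zar1 with library totals (-0.13) and for bmp15 without stage (0.068). In the fits with 1 library left out and no stage term, where the stage change enters the type ratio, the ratios ran from -0.83 to 1.76 (cpeb1b), -2.98 to 1.32 (btg4), -4.11 to 0.90 (mos), -0.57 to 0.86 (gdf9), -1.95 to 1.40 (bmp15), -1.10 to 1.43 (figla) and -1.58 to 0.17 (zp3b), each with a change of sign.

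The pooled labeled percent of the 8 genes became 0.213 (polyA+ 1 hpf), 0.168 (ribo-depleted 1 hpf) and 0.175 (ribo-depleted 4.8 hpf) when computed as conversions over covered T bases, which is another quantity. The median unlabeled ratio of 1.69 in ribo-depleted libraries became 1.36 with TMM and 1.41 with scaling to unlabeled reads, and stayed at 1.69 without the floor. The polyA+ median of 1.69 depends on the floor. With TMM the median type ratio of the 8 genes at 1 hpf became 0.16. The median of all genes became 0.51 at 1 hpf with at least 1000 reads and -0.039 at 4.8 hpf with at least 10. The cause of these changes was not tested. Depth limits figla and mos at 4.8 hpf most, with 13.5 and 20.3 polyA+ reads.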
